A study of Mus musculus with 9 samples.

Results

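The 50 genes described here encode collagens and other components of the extracellular matrix, together with a few enzymes that make, link or cut them. They were chosen by gene symbol, from a list drawn up for matrix genes, and each was followed through 1 list of accessible chromatin regions of the early mouse heart field. Of 17164 distinct regions in that list, 58 were assigned to a matrix gene. At least 1 region was assigned to 34 of the 50 genes and none to the other 16.

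Open chromatin was mapped by ATAC-Seq, a method that uses the transposase Tn5 to cut and tag accessible DNA. The samples were hearts and pharyngeal mesoderm of E8.75 mouse embryos, which have 6 somites. The study made 9 libraries in 3 groups of 3, to ask how Isl1 and Brg1 shape open chromatin in cardiac progenitors. The control group was wt for both genes, the second group was Isl1-/-, and the third carried Isl1Cre+/- with Brg1fl/fl, so that Brg1, the ATPase of a chromatin remodeling complex, was removed only in cells with a history of Isl1 expression. The regions were those common to the 3 control libraries, in mm9 coordinates, with a gene and a distance to its transcription start site (TSS) and without any measure of signal. Neither mutant group was analyzed here, no value below has a replicate error, and the read depth is unknown. Among markers of the dissected tissue, 7 of 10 pharyngeal mesoderm genes had a region, with 9 for Isl1 and 8 for Eya1, and 4 of 10 heart muscle genes had one. Regions were also assigned to 7 of 10 endothelial, 5 of 10 neural, 5 of 10 neural crest, 4 of 10 endoderm and 4 of 10 blood genes. Over all coding genes the share was 49.3%. Within 1 kb of the TSS, a region was present for 6 of 10 pharyngeal mesoderm, 3 heart muscle, 2 endothelial and 2 neural genes. It was present there for 1 neural crest, 1 blood and 0 endoderm genes, beside 40.6% of coding genes. Markers of several tissues thus had regions, and the list does not tell in which cells a matrix gene region was open.

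The extracellular matrix of the early heart lies largely between the muscle layer and the endocardium, as a gel known as cardiac jelly. Hyaluronan, a long sugar polymer made at the cell surface, swells this gel, and the proteoglycan versican binds hyaluronan through link proteins. Epithelial and endothelial layers rest on basement membranes of laminin, type IV collagen, nidogen and perlecan, whereas fibrillar collagens and elastic fibers give tensile strength and recoil to older connective tissue. An accessible region at a TSS usually marks a promoter, and one farther away can mark an enhancer, although accessibility alone does not show which gene an element acts on.

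Sequences of a few elements are shown first, because the composition of promoters and the short motifs in distal regions return in the results. The first set holds the central 300 bp of 4 regions more than 1 kb from the TSS, on the plus strand of NCBIM37, the same build as mm9. Capitals mark each match of AGATAA or its reverse complement, a string bound by GATA factors. The regions lie 47.2 kb upstream of Hapln1 (chr13:89632909-89633208), 6.97 kb downstream of the Hapln1 TSS in an intron (chr13:89687064-89687363), 10.3 kb upstream of Fbn1 (chr2:125342340-125342639) and 49.4 kb upstream of Col1a2 (chr6:4406085-4406384).
Hapln1 upstream: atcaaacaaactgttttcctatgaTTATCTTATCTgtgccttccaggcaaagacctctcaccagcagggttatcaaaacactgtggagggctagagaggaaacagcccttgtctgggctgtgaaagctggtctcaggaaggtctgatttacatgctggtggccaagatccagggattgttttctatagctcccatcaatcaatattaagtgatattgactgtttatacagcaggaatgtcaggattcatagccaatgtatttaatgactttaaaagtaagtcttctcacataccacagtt
Hapln1 intron: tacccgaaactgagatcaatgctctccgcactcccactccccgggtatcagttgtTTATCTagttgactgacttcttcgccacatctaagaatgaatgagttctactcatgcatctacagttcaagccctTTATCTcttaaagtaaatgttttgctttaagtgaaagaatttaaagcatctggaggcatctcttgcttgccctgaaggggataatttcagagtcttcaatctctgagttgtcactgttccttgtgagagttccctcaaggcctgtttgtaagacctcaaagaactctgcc
Fbn1 upstream: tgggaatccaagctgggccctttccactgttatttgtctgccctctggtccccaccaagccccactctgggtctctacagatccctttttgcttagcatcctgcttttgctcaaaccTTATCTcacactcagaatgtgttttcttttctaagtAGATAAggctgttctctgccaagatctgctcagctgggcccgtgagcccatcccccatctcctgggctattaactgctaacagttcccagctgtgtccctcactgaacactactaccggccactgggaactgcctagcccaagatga
Col1a2 upstream: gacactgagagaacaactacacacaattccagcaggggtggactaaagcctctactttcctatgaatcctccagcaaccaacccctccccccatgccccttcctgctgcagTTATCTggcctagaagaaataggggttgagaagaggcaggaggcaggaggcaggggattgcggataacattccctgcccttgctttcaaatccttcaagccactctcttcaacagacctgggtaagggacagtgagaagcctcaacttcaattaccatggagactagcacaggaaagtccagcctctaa

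The second set holds the 250 bases before the TSS of 4 genes, from RefSeq on GRCm38.p6 and in the direction of the gene, with each CpG dinucleotide in capitals. They were chosen to pair low and high CpG content with the presence and absence of a region. Lama2 (chr10:27616943-27617192, minus strand) and Lama5 (chr2:180225860-180226109, minus strand) had a region within 1 kb of the TSS, with 0 and 19 CpG dinucleotides in these bases. Col3a1 (chr1:45311288-45311537, plus strand) and Col5a1 (chr2:27886175-27886424, plus strand) had none, with 0 and 28.
Lama2, region: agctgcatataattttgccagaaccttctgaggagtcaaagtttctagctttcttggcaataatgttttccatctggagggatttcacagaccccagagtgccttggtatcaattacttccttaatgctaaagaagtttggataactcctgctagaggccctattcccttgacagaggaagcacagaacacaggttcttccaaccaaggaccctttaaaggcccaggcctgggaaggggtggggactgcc
Lama5, region: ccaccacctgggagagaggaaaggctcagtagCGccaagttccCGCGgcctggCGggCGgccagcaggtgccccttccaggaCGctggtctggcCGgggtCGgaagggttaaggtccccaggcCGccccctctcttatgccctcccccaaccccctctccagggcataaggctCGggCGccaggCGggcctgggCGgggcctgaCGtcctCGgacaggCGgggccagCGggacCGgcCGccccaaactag
Col3a1, no region: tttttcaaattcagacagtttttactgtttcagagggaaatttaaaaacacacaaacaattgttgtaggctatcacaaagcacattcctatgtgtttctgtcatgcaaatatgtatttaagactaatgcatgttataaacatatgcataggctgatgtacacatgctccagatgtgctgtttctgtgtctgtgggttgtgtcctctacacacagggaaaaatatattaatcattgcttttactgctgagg
Col5a1, no region: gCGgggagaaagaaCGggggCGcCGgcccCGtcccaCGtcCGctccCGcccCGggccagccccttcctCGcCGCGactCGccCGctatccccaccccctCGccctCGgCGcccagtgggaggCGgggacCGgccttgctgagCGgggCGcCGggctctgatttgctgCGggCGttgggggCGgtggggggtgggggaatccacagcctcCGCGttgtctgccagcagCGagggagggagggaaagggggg

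The share of matrix genes with a region was 68.0% (34 of 50, 95% Wilson interval 54.2 to 79.2%), beside 49.3% of the 21027 protein-coding genes with a curated transcript. A region centered within 1 kb of the assigned TSS was present for 24 of 50 genes, or 48% (34.8 to 61.5%), beside 40.6%. A region farther than 1 kb was present for 19 of 50 genes, or 38% (25.9 to 51.8%), beside 18.7%. The matrix genes therefore stood above the background most in distal regions, and at the TSS the background lay inside the interval. The 50 genes were chosen with earlier results of this list known, and matrix genes outside them stood lower, with a region at 9 of 23 other collagen genes (39.1%) and 16 of 38 other matrix protein genes (42.1%). The intervals cover counting error only, and treat genes as separate draws although several are neighbors.

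Matrix genes are long and lie far apart, and this was measured beside those shares. The stretch of genome closer to a gene's annotated starts than to those of any other gene had a median of 159 kb over the 50 matrix genes and 45.7 kb over 22238 coding genes, and the median gene length was 74.9 kb against 15.5 kb. Among genes with a stretch between 100 and 304 kb, the middle range of the matrix genes, 14 of 24 matrix genes (58.3%) and 68.5% of 3698 coding genes had a region. In that range a region within 1 kb was present for 37.5% and 53.2%, and a distal region for 33.3% and 34.5%. Counted by the nearest annotated start, there were 3.28 distal regions per Mb of stretch at matrix genes, 41 in 12.5 Mb, and 2.97 per Mb over all coding genes. Beside genes of similar stretch, the 24 matrix genes in that range thus had a region no more often than the background. No interval was taken for these shares. The range leaves out Has2, Tnc, Hapln1, Fbn2 and Vcan, whose stretches are longer than 304 kb, so these genes were not compared. This comparison by stretch was chosen after the data had been seen.

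The 58 regions were spread unevenly over the 34 genes. A single region was assigned to 21 genes, 2 to 8 genes and 3 to 2 genes, while Tnc had 4, Hapln1 5 and Has2 6. Of the genes with a region, 13 of 34 (38.2%) had more than 1, beside 26.1% of the coding genes with a region. The group of hyaluronan enzymes and proteoglycans held 13 regions on 3 genes, and the 15 basement membrane genes held 10 regions on 9 genes.

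**Figure D1:**
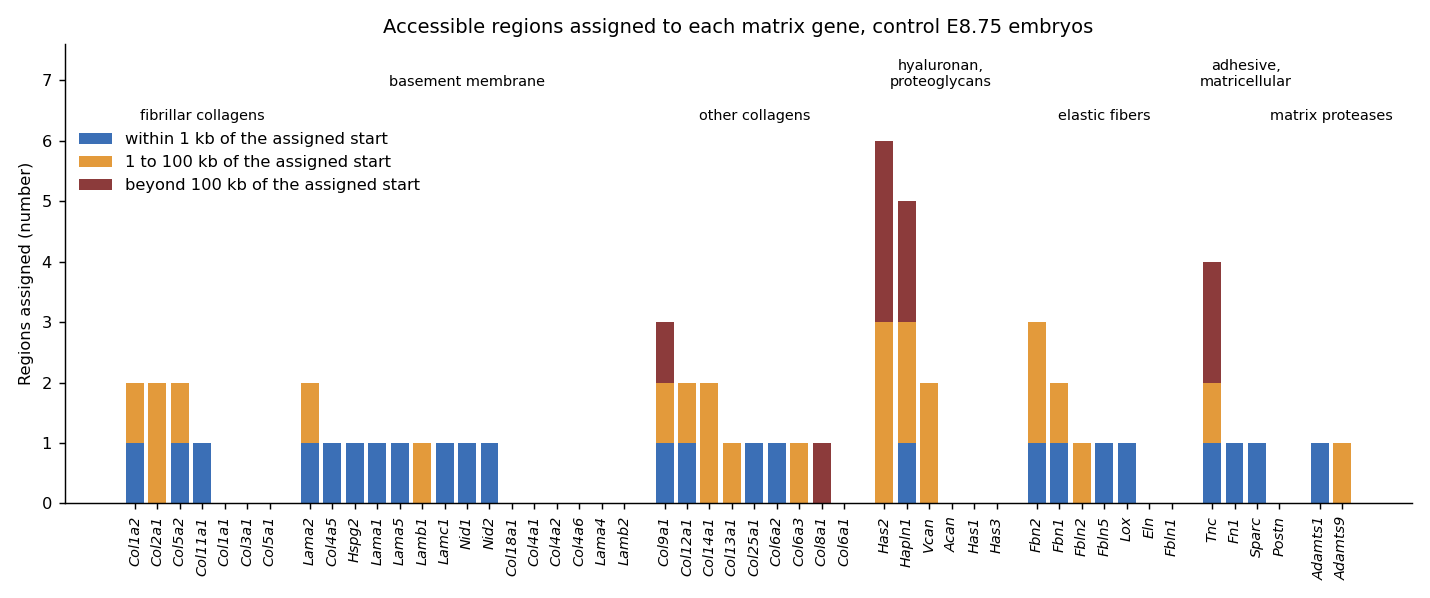
Number of accessible regions assigned to each of the 50 matrix genes in the control list, grouped by role along the horizontal axis and colored by distance of the region center from the assigned TSS. Has2, Hapln1 and Tnc reach 6, 5 and 4 regions, most of them beyond 1 kb, and the 16 genes without a bar have no assigned region.

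The center of a matrix gene region was within 1 kb of the assigned TSS for 24 of 58 regions (41.4%, 29.6 to 54.2%), beside 52.9% of all regions, a value inside the interval. The Col9a1 region at 987 bp was the farthest one counted as within 1 kb, and the Vcan region at 1097 bp and a Has2 region at 1683 bp were the nearest ones counted as outside. Of the 34 regions beyond 1 kb, 14 (41.2%, 26.4 to 57.8%) lay downstream of the TSS, beside 54.5% of 8081 such regions in the list. All but 3 of those 14 lay in an intron, the exceptions being those of Col6a3, Fbln2 and Adamts9. For 10 genes every region was distal: Col2a1, Lamb1, Col6a3, Col8a1, Col13a1, Col14a1, Has2, Vcan, Fbln2 and Adamts9.

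**Figure D2:**
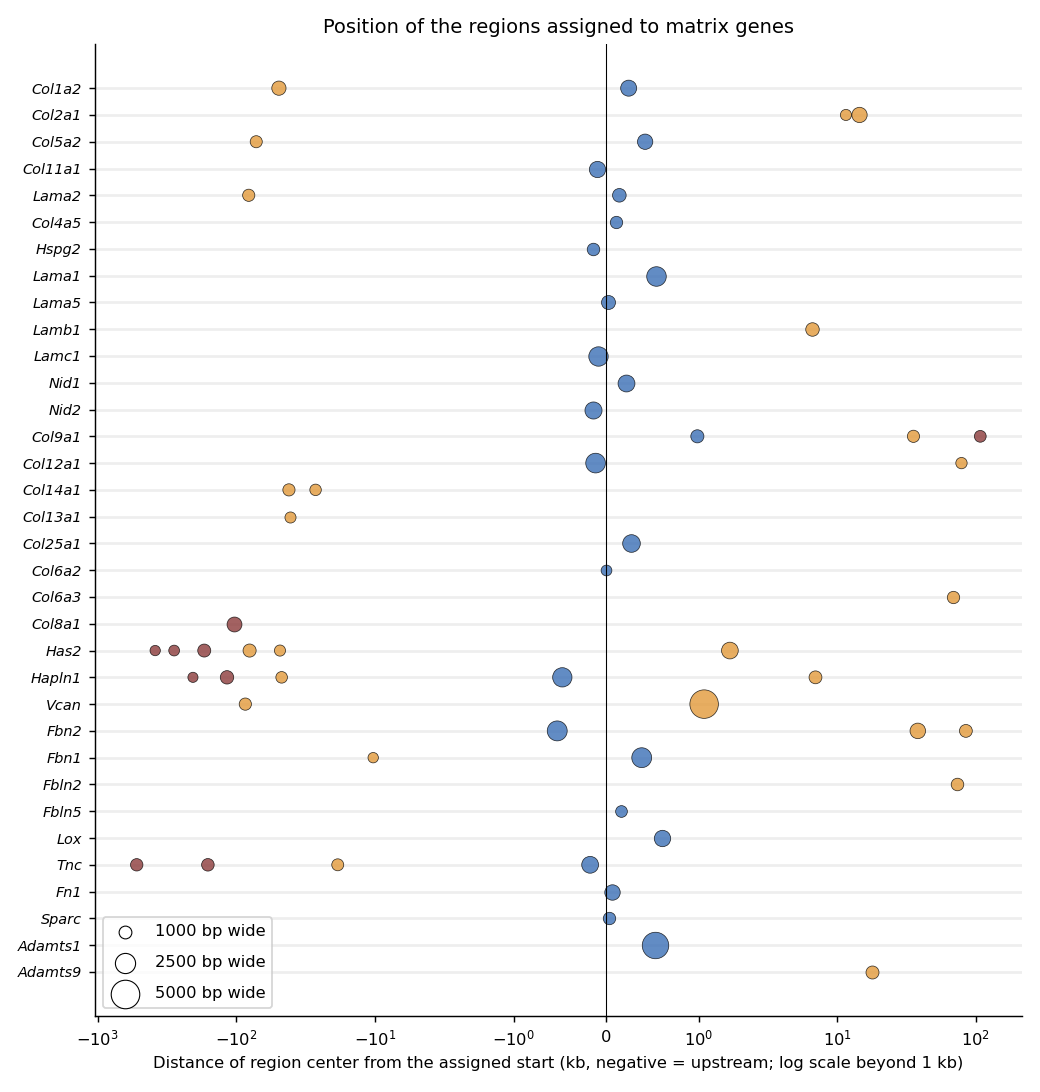
Distance in kb of each region center from the assigned TSS for the 34 genes with a region (negative is upstream; the axis is linear within 1 kb and logarithmic beyond), with the area of the circle proportional to region width. Blue circles are within 1 kb, orange ones 1 to 100 kb and dark red ones beyond 100 kb. The upstream side holds the far regions of Has2, Hapln1 and Tnc, and the largest circles belong to Vcan and Adamts1.

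Among the 7 fibrillar collagen genes, which encode the chains of tissue fibrils, 4 had a region. Col1a2, which encodes the second chain of type I collagen, had a region of 1576 bp centered 244 bp downstream of its TSS and another of 1246 bp 49.4 kb upstream. Col5a2, a chain of the type V collagen that helps start fibrils, had regions of 1441 bp at 422 bp downstream and 897 bp at 72.0 kb upstream. Both genes paired a TSS region with an intergenic region of lower CpG content. At Col1a2 the frequency was 3.05 CpG per 100 bp at the TSS and 0.88 upstream, and at Col5a2 it was 1.67 and 0.67. Col11a1, of the minor fibrillar type XI, had only a TSS region, of 1630 bp (chr3:113732550-113734179).

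Col2a1, which encodes the main collagen of cartilage, had 2 regions and neither was at the assigned TSS. They lay in introns, 11.6 kb (chr15:97823211-97823972, 762 bp) and 14.5 kb (chr15:97819948-97821388, 1441 bp) downstream. The second of these covered 1 of the 10 starts annotated for Col2a1, inside the gene.

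No region was assigned to Col1a1 or Col5a1, which encode the other chains of collagens I and V, or to Col3a1, whose product alone forms type III collagen. From the annotated starts of Col1a1 the nearest region of any gene was 95.7 kb away, assigned to Pdk2. For Col5a1 it was 167 kb away, assigned to Olfm1. Of the pair of chains in type I collagen, the list thus held a TSS region for Col1a2 and none for Col1a1.

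Basement membrane genes with a region mostly had a single one, and it mostly lay at the TSS, as among coding genes in general. Of the 15 genes, 9 had a region and 8 of these had one within 1 kb. The shares over all coding genes were 49.3% and 40.6%. Of the 10361 coding genes with a region, 8540 had one within 1 kb and 2706 had more than 1. No interval was taken for this group. Laminin α chain genes Lama1, Lama2 and Lama5 had TSS regions of 2350, 1141 and 1207 bp, and the γ chain gene Lamc1, shared by many laminins, had one of 2316 bp. Nid1 and Nid2, whose nidogen products bridge laminin and type IV collagen, had TSS regions of 1750 and 1792 bp. The Hspg2 region, at the gene for perlecan, was 964 bp wide and had the highest CpG frequency of all matrix gene regions, 7.99 per 100 bp. Col4a5 had a TSS region of 941 bp.

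Lama2 was the single basement membrane gene with a second region, of 914 bp and 81.5 kb upstream (chr10:27417811-27418724). Lamb1, a laminin β chain gene, had no TSS region and a single region of 1122 bp in an intron 6.55 kb downstream (chr12:31956145-31957266). The genes without a region were Col4a1, Col4a2, Col4a6, Col18a1, Lama4 and Lamb2. A region assigned to Usp19 overlapped the body of Lamb2, 10.3 kb from its start, and the nearest region to a Lama4 start was 27.7 kb away, assigned to Tube1.

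Of the 9 collagen genes outside these groups 8 had a region, and 4 of the 8 had one at the TSS. Col9a1, of the type IX collagen that coats cartilage fibrils, had 3 regions on chr1, at 0.987 kb (1056 bp), 35.5 kb (915 bp) and 108 kb (858 bp) downstream. The last of these was centered in an intron of the neighboring Col19a1. Col12a1, which encodes a fibril-associated collagen, had a wide TSS region of 2379 bp and one of 793 bp in its own intron 78.8 kb downstream. Col25a1, a transmembrane collagen gene, had 1910 bp at its TSS. Col6a2, of the beaded-filament type VI, had 709 bp there, the narrowest of the 24 matrix regions within 1 kb.

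In this group 4 collagen genes had distal regions only. Col14a1, another fibril-associated collagen gene, had regions 41.8 kb (chr15:55097046-55097960) and 26.9 kb (chr15:55112040-55112851) upstream, of 915 and 812 bp. Col13a1 had 758 bp at 41.2 kb upstream (chr10:61482693-61483450), and Col8a1, of a short-chain collagen of vessels, had 1366 bp at 104 kb upstream (chr16:57858044-57859409). Col6a3 had 940 bp at 68.1 kb downstream (chr1:92671936-92672875), centered on a coding exon of the gene, with its edge 2146 bp from another annotated Col6a3 start. Col6a1 had no region.

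By the deposited assignment, hyaluronan and proteoglycan genes held the longest arrays. Has2, which encodes the main hyaluronan synthase of the embryo, had 6 regions on chr15 and none within 1 kb. The nearest (56523560 to 56525276, 1717 bp) was centered 1.68 kb downstream, with its edge 818 bp from the annotated Has2 start, and it covered the start of the antisense gene Has2as. The others were all upstream. Those at 48.5 kb (56574235 to 56574998, 764 bp) and 80.4 kb (56605926 to 56606979, 1054 bp) lay in introns of Has2as. Those at 171 kb (56696228 to 56697265, 1038 bp), 281 kb (56807040 to 56807755, 716 bp) and 385 kb (56911166 to 56911823, 658 bp) were intergenic. GC content was 55.3% in the region nearest the TSS and between 38.4 and 42.4% in the 5 upstream ones. The stretch nearest to Has2 starts was 679 kb long.

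Hapln1, the link protein that fixes hyaluronan to proteoglycans, had 5 regions on chr13. The 3 intergenic ones lay upstream, at 206 kb (89474076 to 89474708, 633 bp), 117 kb (89562754 to 89563859, 1106 bp) and 47.2 kb (89632646 to 89633471, 826 bp). The TSS region (89678623 to 89680912) was 2290 bp wide, and an intronic one (89686706 to 89687721) of 1016 bp lay 6.97 kb downstream. CpG frequency was 2.71 per 100 bp at the TSS and at most 0.59 in the other 4 regions.

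Vcan, which encodes versican, had the widest region of all matrix genes. It spanned 4997 bp (chr13:89878522-89883518), ranked 4 of 17164 regions by width, and covered 7 of the 10 starts annotated for Vcan. Its center fell 1097 bp inside the gene, so it was counted as distal although it contained the promoter. The other Vcan region, of 920 bp, lay 86.3 kb upstream (chr13:89967915-89968834) on an exon of the noncoding gene Gm4117. Has1 and Has3, the other hyaluronan synthase genes, and Acan, the aggrecan gene of cartilage, had no region, with the nearest one of any gene 16.2, 65.0 and 62.5 kb from a start.

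Elastic fiber genes had regions mainly at fibrillins. Fbn2, which encodes a fibrillin of developing microfibrils, had 3 regions on chr18: one of 2440 bp at 529 bp upstream, one of 1483 bp at 38.1 kb and one of 1016 bp at 84.8 kb downstream, the last 2 in introns. Fbn1 had a TSS region of 2421 bp (chr2:125330579-125332999) and a region of 665 bp at 10.3 kb upstream. Both fibrillin genes thus had a wide TSS region, each among the 5 widest regions of the matrix genes. Fbln5, needed for elastic fiber assembly, had 845 bp at its TSS, and Lox, the enzyme that crosslinks collagen and elastin, had 1650 bp. Fbln2 had only a region of 969 bp at 72.9 kb downstream (chr6:91235135-91236103), outside the gene, and with 62.6% GC and 6.50 CpG per 100 bp it had the highest CpG frequency among the 34 distal regions. Eln, which encodes elastin itself, and Fbln1 had none, with the nearest region 57.7 and 72.2 kb away.

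Of the adhesive and matricellular genes, Fn1, Sparc and Tnc had a region and Postn had none. Fibronectin, the product of Fn1, is the main adhesive matrix protein of the early embryo, and its TSS region was 1466 bp wide (chr1:71699013-71700478). Sparc, a collagen-binding protein gene, had 949 bp at its TSS. Tnc, which encodes tenascin C, had 4 regions on chr4, at 173 bp (63707353 to 63709092, 1740 bp), 18.6 kb (63726197 to 63727075, 879 bp), 161 kb (63868187 to 63869158, 972 bp) and 524 kb (64231408 to 64232352, 945 bp) upstream. These are distances to the deposited start. The nearest Tnc start in GENCODE was 25.6 kb from the edge of the first region, so that region counts as within 1 kb by the deposited distance only. The first 2 regions were centered in an intron of 8030451A03Rik. Postn, which encodes the valve protein periostin, was the most isolated gene, with the nearest region 303 kb from a start.

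Both matrix protease genes had 1 region. Adamts1 and Adamts9 encode secreted enzymes that cleave versican. The Adamts1 region spanned 4303 bp (chr16:85800682-85804984), ranked 10 of 17164 by width and 3 of the 9083 within 1 kb of a TSS. The Adamts9 region was 1040 bp wide and 17.9 kb downstream (chr6:92832994-92834033). A further region of 1391 bp (chr6:92892878-92894268) covered an annotated start of Adamts9 but was assigned to 9530026P05Rik, so the count for Adamts9 depends on that assignment. Versican and both proteases that cut it thus had a region over an annotated start.

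Over all 58 regions the median width was 1039 bp (95% interval of the median 945 to 1246 bp), against 1123 bp for the whole list. By position the differences went both ways, and 41.4% of matrix regions lay within 1 kb, where regions were widest, beside 52.9% of the list. Within 1 kb of the TSS the median was 1640 bp for the 24 matrix regions and 1294 bp for the 9083 regions of the list, while from 1 to 100 kb it was 920 bp against 967 bp and beyond 100 kb 945 bp against 919 bp. Of the 24 TSS regions, 13 lay above the upper quartile of the list for that class (1612.5 bp), 6 below the lower quartile (1084 bp), and 6 above the 95th percentile (2304.5 bp). The share below the lower quartile was the same as in the list, where it is fixed by definition. TSS regions of matrix genes thus stood apart from the list on the wide side only. The widest were those of Adamts1, Fbn2, Fbn1, Col12a1, Lama1 and Lamc1. The 6 below the lower quartile were those of Col6a2, Fbln5, Col4a5, Sparc, Hspg2 and Col9a1. Width also depends on read depth and peak calling, whose part in these values was not tested.

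**Figure D3:**
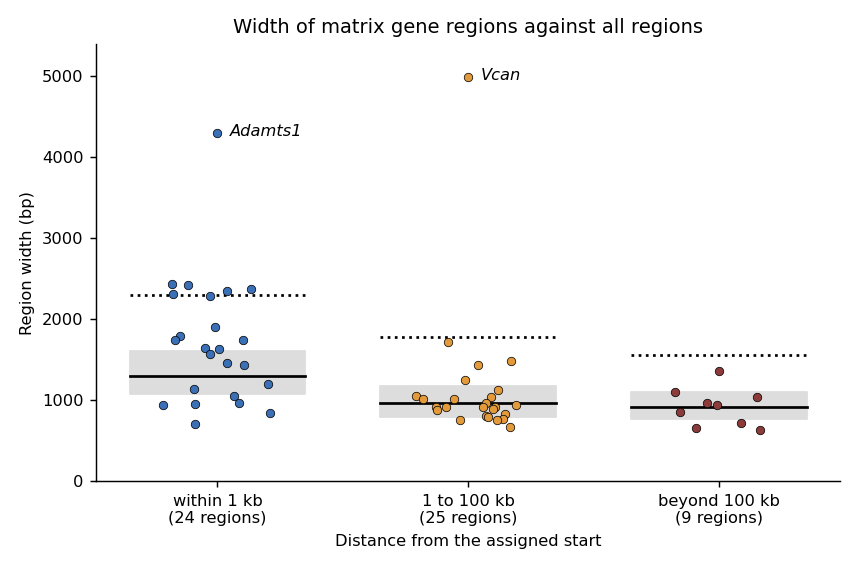
Width in bp of the 58 matrix gene regions (points), by distance from the assigned TSS, against all regions of the same class (gray box, lower to upper quartile; line, median; dotted line, 95th percentile). Of the 24 regions within 1 kb, 13 lie above the box and 6 below it, and Vcan is the single distal region above the dotted line.

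Regions within 1 kb of the assigned TSS had a lower median CpG frequency at matrix genes than in the list. Median CpG frequency within 1 kb was 4.61 per 100 bp against 5.93, at a similar GC content of 57.1% against 58.1%. It was taken over whole regions, which were wider at matrix genes there (median 1640 bp against 1294 bp), and the part of width was not tested. These 24 regions include those of Tnc and Col9a1, which covered no annotated start of their gene. Beyond 1 kb the medians were 1.11 against 1.35 CpG per 100 bp, with GC content of 44.1% against 47.5%. The 9 regions beyond 100 kb, of Has2, Tnc, Hapln1, Col8a1 and Col9a1, had a median GC content of 39.8%, against 44.8%.

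In 4 pairs of collagen genes that lie within 100 kb of each other, at most 1 gene had a region. Col4a1 and Col4a2, the chains of the common type IV collagen, start 21 bp apart on opposite strands of chr8 (11198423 to 11449287), and no region lay in their span or within 10 kb of it. Col4a5 and Col4a6 have the same arrangement on chrX (137599946 to 138123778) with starts 1309 bp apart, and the 1 region found there was assigned to Col4a5, with its edge 0.98 kb from a Col4a6 start. Of Col6a1 and Col6a2 on chr10 (76058507 to 76188913), only Col6a2 had a region. Of Col3a1 and Col5a2 on chr1, whose bodies are 24615 bp apart, only Col5a2 had regions, and the nearest one to a Col3a1 start was 174 kb away.

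Both genes had regions in the remaining pair of neighbors, Hapln1 and Vcan, which lie on opposite strands with 43478 bp between their ends and encode proteins that bind each other. Together they held 7 regions from 206 kb upstream to 288 kb downstream of the Hapln1 TSS. No region lay between the intronic one of Hapln1 and the wide one at the Vcan start, 201 kb from the Hapln1 TSS. The 3 intergenic regions of Hapln1 lay on the side away from Vcan, as did the farther Vcan region on the side away from Hapln1.

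CpG content before the TSS was examined because many vertebrate promoters lie in CpG islands. The RefSeq promoter table held 35 of the 50 genes, and the others were Lama1, Lama4, Lamc1, Nid2, Has2, Has3, Col1a1, Col2a1, Col5a2, Col12a1, Col14a1, Fn1, Fbn2, Eln and Lox. Where any gene had more than 1 entry, the one richest in CpG was used, which need not be that of the assigned TSS. In the 250 bases before the TSS, the median was 4.8 CpG per 100 bp for the 16 matrix genes with a region within 1 kb and 4.0 for the 19 without. For coding genes the medians were 6.8 for 6936 with a region and 2.0 for 9916 without. The gap was narrower among the 35 matrix genes with an entry. The 16 leave out Lama1, Lamc1, Nid2, Col5a2, Col12a1, Fn1, Fbn2 and Lox, which had a region within 1 kb but no entry. Vcan counted as without, although its wide region covered annotated starts, and Tnc counted as with by the deposited distance only. Col9a1 counted as with, although its region covered no annotated start of the gene.

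Individual genes went against the coding gene medians in both directions, in counts too small to rank. Of 11 matrix genes with at most 2 CpG per 100 bp, 4 had a region within 1 kb (Lama2 and Col9a1, both at 0, Hapln1 at 0.8 and Sparc at 1.6), beside 7.93% of coding genes in that band. The Col9a1 region was centered 987 bp downstream and did not cover an annotated start. Of 11 with more than 6, 5 had one, beside 63.4% of coding genes, so lacking a region was also common among coding genes there. No interval was taken for these counts. The 6 CpG-rich genes without a region within 1 kb were Col4a1 (12.4 per 100 bp), Col5a1 (11.2), Col4a2 and Acan (both 10.4), Col13a1 (9.6) and Adamts9 (8.8), and the last is the gene whose start was covered by a region assigned elsewhere. In the bands between, 3 of 6 and 4 of 7 matrix genes had a region, beside 42.3% and 60.1%. The promoters of Lama2 and Col5a1 printed above are examples of a CpG-poor gene with a region and a CpG-rich gene without one.

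**Figure D4:**
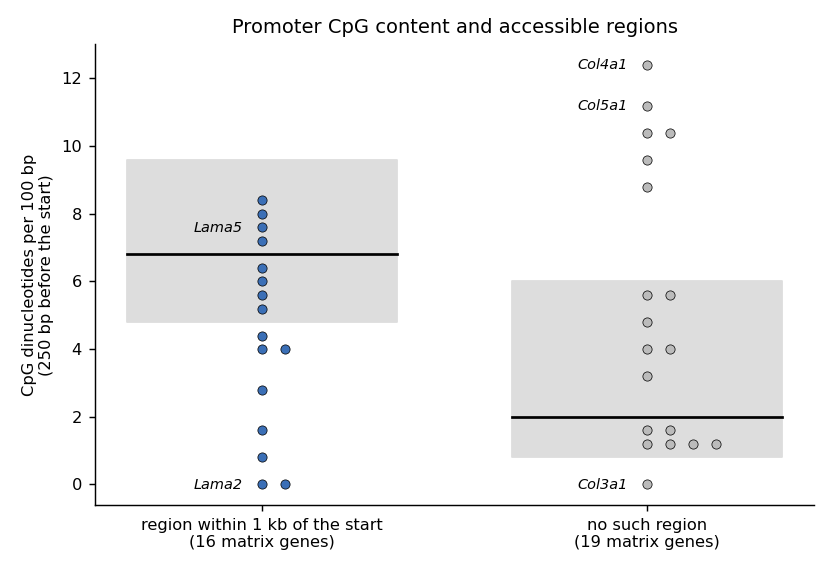
CpG dinucleotides per 100 bp in the 250 bp before the TSS for the 35 matrix genes with a promoter sequence, split by whether a region lay within 1 kb of the assigned TSS; equal values are set side by side. Gray boxes and lines give the quartiles and medians of coding genes (6.8 with a region, 2.0 without), and the 6 matrix genes above the right-hand box include Col4a1 and Col5a1.

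Short motifs were counted in the central 300 bp of each region, as exact matches on either strand. The 9 strings were CTAATG for Isl1, AGATAA for GATA factors, GGAATG for TEAD factors, TGANTCA for AP-1, ACAAAG for HMG box factors, CAGCTG as E-box, GGGCGG as GC box, TATAAA as the box of that name and CCAAT likewise, and none of them contains another. A match describes the letters only and does not show that a factor was bound.

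The GATA string was the one that stood farthest from the background in distal regions. It was present in 13 of 34 matrix gene regions beyond 1 kb (38.2%, 23.9 to 54.96%) and in 14.5% of 8081 regions of the list. The 13 regions belonged to 9 genes: Has2 and Hapln1 with 3 each, and Col1a2, Col2a1, Col5a2, Col14a1, Lamb1, Fbn1 and Fbn2 with 1 each. With Has2 and Hapln1 left out, since regions of 1 gene share a locus, it was present in 7 of 24 (29.2%). Because these regions are poor in GC, shares were also taken on each side of their median GC content (44.1%). At or under it, 7 of 17 matrix regions and 21.6% of all regions had the string, and above it 6 of 17 and 11.7%. The 2 Hapln1 regions and the Fbn1 region printed above held 2 matches each, and the Col1a2 region held 1.

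Other strings were closer to their background in distal matrix gene regions. The Isl1 string was present in 5 of 34 (14.7%) beside 11.2%, the HMG string in 12 (35.3%) beside 33.8%, the E-box in 6 (17.6%) beside 23.6% and the GC box in 6 (17.6%) beside 19.3%. TEAD and AP-1 strings were less frequent than in the list, in 4 (11.8%) beside 22.2% and in 1 (2.94%) beside 8.58%, with intervals that held the background. The TATA box was present in 7 (20.6%) beside 9.57% and the CCAAT box in 17 (50%) beside 32.7%. The interval lay just above the background for both, but in a window of 400 bp it held the background for both (20.6% beside 13.1%, and 52.9% beside 40.8%), as it did for the CCAAT box in a window of 200 bp (29.4% beside 23.2%). At or under the median GC content, the TATA box was present in 5 of 17 beside 16.6% and the CCAAT box in 11 of 17 beside 34.9%. In percentage points, this gap of the CCAAT box was wider than that of the GATA string on the same side. Above it, the TATA box was present in 2 of 17 beside 6.86% and the CCAAT box in 6 of 17 beside 31.9%.

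**Figure D5:**
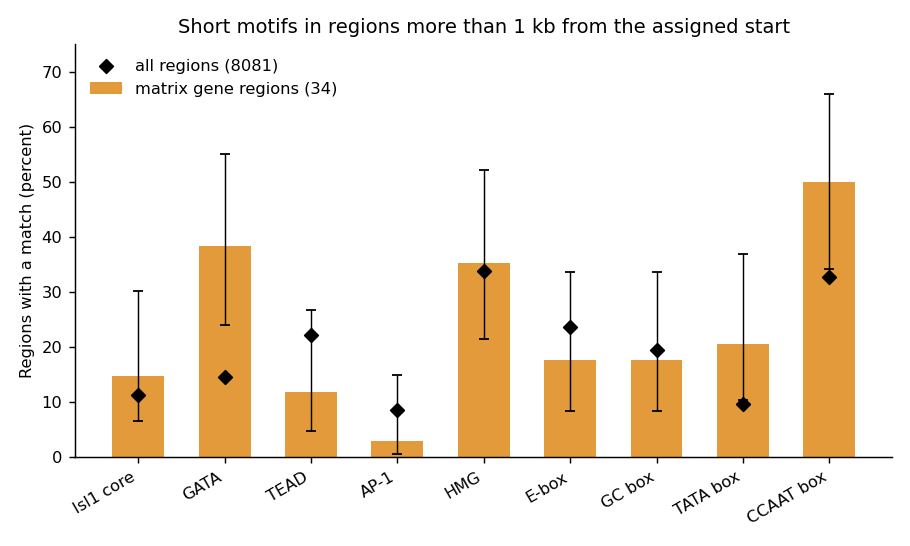
Percent of regions more than 1 kb from the TSS with at least 1 exact match in the central 300 bp, for 34 matrix gene regions (bars, with 95% Wilson intervals) and all 8081 regions of that class (diamonds). The GATA bar (38.2%) stands above its diamond (14.5%) by more than the interval, and the TEAD and AP-1 bars stand below theirs within it.

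Within 1 kb of the TSS, the TATA box was present in 4 of 24 matrix gene regions (16.7%, 6.68 to 35.9%) beside 3.04% of the list. They were those of Tnc, Col4a5, Hapln1 and Col9a1, and the Tnc and Col9a1 regions covered no annotated start of their gene. The TEAD string was present in 6 of 24 (25%) beside 9.26%, those of Col1a2, Col5a2, Col6a2, Col12a1, Hapln1 and Fbln5. In a window of 200 bp it was present in 3 of 24 (12.5%, 4.34 to 31.0%) beside 6.24%, a background inside the interval. The GC box was present in 15 of 24 (62.5%) beside 69.2%, and the GATA string in 1 (4.17%), the Col1a2 region, beside 3.24%. In the 250 bases before the TSS, the GATA string was in 0 of 35 matrix genes beside 8.63% of coding genes, and the TATA box in 5 of 35 beside 11.8%.

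Genes that act on or beside these matrix components were counted in the same way. Of 19 genes for collagen processing, such as prolyl and lysyl hydroxylases, 12 had a region and 11 had one within 1 kb, with Adamts3 at 4 regions. Of 24 matrix receptor genes, 16 had a region, 15 of them within 1 kb, and the integrin genes Itga1, Itgb1 and Itgb8 had 6, 4 and 4. Of 23 collagen genes outside the 50, 9 had a region, at most 2 each (Col22a1 and Col9a2). Of 38 other matrix protein genes, 16 had one, with 8 for Ltbp1, a TGF-beta binding protein gene, and 4 for Tnr. Beside the 49.3% of coding genes with a region, processing genes stood at 63.2% and receptor genes at 66.7%. No interval was taken for these small lists, and they were not compared with genes of similar stretch.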

How the data were processed

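Groups of ATAC-Seq libraries follow the labelled genotype (3 control, 3 Isl1-/-, 3 Isl1Cre+/- with Brg1fl/fl). Per the study's methods, the authors mapped reads to mm9 with bowtie2, removed duplicates with Picard 1.136, called peaks per library with MACS14, removed blacklisted regions and kept regions common to the replicates with bedtools 2.15. The deposited values are positions and distances in bp, with no score. The tool that assigned genes is stated only for ChIP-Seq peaks. Extension of tags by a fixed shift and unknown depth affect widths, and a requirement for all libraries favors strong sites, so a gene without a region need not be closed.

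Rows with the same coordinates were counted once (61 rows gave 58 regions). Positions were taken as 1-based and closed. The base of the deposited starts is not given in the sources used here, so centers and the edges of printed regions may be off by 1 bp. For 38 of the 58 regions, the deposited distance differed by at most 100 bp from that to the nearest GENCODE start of the same gene. Gene structure and sequence came from NCBIM37, names and promoters from RefSeq GRCm38.p6, matched by symbol (50 of 50 names, 35 promoters). Shares have 95% Wilson intervals. No test was made, because a single list has no value per library. Genes were named by rule: each of the 50 genes with its number of regions, in full those with the most regions, the 5 widest regions, genes with distal regions only and neighbors within 100 kb. For lists outside the 50, the genes with the most regions are named. The 50 genes, lists and motifs were chosen with earlier results of these data known. Scripts were tested on simulated data and used Python 3.11.15, pandas 2.3.3, numpy 2.4.6, scipy 1.17.1, pysam 0.24.0 and matplotlib 3.10.9.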

Additional observations from a re-analysis of the deposited data

How the results depend on the processing

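Of 36 alternative values computed for the matrix genes, 31 were counted as the same and 5 as moved. A share or median counted as moved when it fell outside the interval of the reported value. The number of regions has no interval and was judged by a fixed ratio to the reported number. Dropping regions narrower than 1123 bp, the median of the list, leaves fewer regions by construction. It lowered the share of genes with a region to 44%, lowered the number of regions to 24 and raised the share of regions within 1 kb to 75%. In a central window of 200 bp the GC box was present in 5.88% (list 14.9%) and the CCAAT box in 29.4% (list 23.2%) of distal matrix gene regions. A shorter window can only hold fewer matches, but the larger drop of the GC box than in the list has a cause that was not tested. Assignment to the nearest annotated start gave 67 regions, on 72% of the genes. By that rule Has2 had 7 regions, Hapln1 and Col12a1 had 5 each, and Tnc and Lama2 had 4 each. Lama4 had 2 and Acan 1, although the deposited assignment gave them none. The region over an Adamts9 start belonged to another gene, and counting any region that covers an annotated start, an alternative chosen after seeing the data, gave 50% of genes. The GATA string was present in 29.4% of distal regions in a window of 200 bp (list 9.66%) and in 38.2% in one of 400 bp (list 18.9%). At the TSS, the TEAD string was present in 12.5% (list 6.24%) and 33.3% (list 12.4%). No paired analysis was possible because the control libraries share 1 list with no value per library, and for the same reason no library could be left out. Unknown depth limits every statement on genes without a region.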
